A study of Sus scrofa with 63 samples.

Results

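Rab, Arf, Arl and Sar1 proteins are small GTPases that give each step of vesicle traffic its direction. Bound to GTP they sit on a membrane and recruit coats, tethers and motors, and after GTP hydrolysis they are taken off the membrane and return to the cytosol. In hepatocytes they route newly made plasma proteins and lipoprotein particles out of the endoplasmic reticulum (ER) and through the Golgi, sort receptors taken up from blood, and deliver proteins to the canalicular and the sinusoidal surface. The genes described here are those whose symbol in the platform annotation is RAB, ARF, ARL or SAR1 with a number and, where present, a letter. They were 36 of the 6765 genes with exactly 1 symbol on the array: 26 RAB, 5 ARF, 3 ARL and 2 SAR1 genes. They carry 60 probe-sets, and each of the 17 genes with more than 1 probe-set is represented by that with the highest mean over all arrays. Probe-sets with several symbols, and members of these families without a probe-set under this rule, were not analysed here.

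Liver RNA came from HP offspring, that is pigs born to German Landrace gilts that had received a diet of 30% crude protein during gestation, and was hybridised to 63 Affymetrix porcine arrays, 1 per animal. Fetuses at 94 dpc (days post conception) gave 16 arrays, newborns at 1 dpn (days post natum) 16, piglets at 28 dpn 15 and grown pigs at 188 dpn 16. All groups shared the maternal diet, and offspring of the AP diet were left aside, so the values describe development and none the effect of protein supply. The fetuses came from other sows than the postnatal animals, light and heavy sibs were chosen at 94 dpc and 1 dpn only, piglets not sampled at 1 dpn were cross-fostered to other sows, and the way of killing and the fasting before it differed between stages. Sex, mother and sib pair are not in the labels and were not used, so that litter mates counted as independent animals. Stage and these conditions cannot be told apart.

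The deposited values are log2 signals, and a difference of 1 is a doubling. Signals of different probe-sets are not on a common scale, so levels are compared between stages and not between genes. Adjacent stages were compared as period I (1 dpn minus 94 dpc), period II (28 dpn minus 1 dpn) and period III (188 dpn minus 28 dpn), and 188 dpn minus 94 dpc is called the whole span. A gene was tested where its signal passed the median of the array in 50% or more of the animals of a stage. Calls rest on limma with Benjamini-Hochberg adjustment over all probe-sets tested, at a threshold of 0.05. "Rose" and "fell" are used for called changes. Array medians averaged 7.38, 7.23, 6.83 and 6.72 at 94 dpc, 1 dpn, 28 dpn and 188 dpn, and the background, taken as the 95th percentile of those 23 controls that have no target, averaged 6.10, 5.83, 5.65 and 5.64. The 3′ minus 5′ signal of actin, a measure of RNA integrity and labelling, averaged 2.44, 1.59, 3.66 and 4.10, and that of the RNAs added before labelling lay between 0.43 at 94 dpc and 1.43 at 28 dpn. These measures moved with stage, and their part in the changes below was not tested. All 9 hepatocyte markers on the array were above background on every array. In period I 6 of them fell and none rose, when 30.9% of all genes fell. Over the whole span 8 fell, when 46.7% of all genes fell. The remaining marker, HNF4A, rose, with means of 12.12 at 94 dpc and 13.08 at 188 dpn. All marker counts given here rest on the deposited values only. Markers of red cell precursors (5 of 5, median change -2.78) and of neutrophils (6 of 6, -1.42) fell in period I. In that period 30.9% of all genes fell. T and NK cell markers rose in period II (5 of 5 tested, 2.04), when 34.1% of all genes rose. All T and NK cell markers averaged below the mean array median at 1 dpn (7.23). Those tested thus likely passed the filter on level through 28 dpn alone, where they were high. KLF1, TFRC, ELANE, S100A12 and PRTN3 also averaged below it at 1 dpn, so they likely passed through 94 dpc alone. Such calls are no support beyond the levels themselves. The part of these marker shifts in the changes of the GTPase genes was not tested. In bulk tissue, fewer cells of a type and less RNA per cell cannot be told apart. Array 6 of 94 dpc had the highest actin difference of its stage (4.30) and held the lowest 94 dpc value of 13 of the 36 genes. Without it all 19 calls of GTPase genes in period I were kept, and 23 of 25 over the whole span, where RAB8A and ARL2 were lost.

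A larger share of the GTPase genes than of all genes rose around birth, and a larger share fell between 1 dpn and 28 dpn. In period I, 15 of 33 genes tested rose and 4 fell, against 28% and 30.9% of all genes tested. Their median change was 0.14, and that of all genes -0.027. In period II, 10 of 34 rose and 17 fell, against 34.1% and 36.8% of all genes, with a median of -0.25 and -0.015 over all genes. In period III the counts were nearer to the background, with 4 of 33 that rose and 11 that fell, against 13.6% and 26.6% of all genes, and medians of -0.095 for the GTPase genes and -0.083 for all genes. Over the whole span 8 of 33 rose and 17 fell, against 33.7% and 46.7% of all genes, with medians of -0.30 and -0.17. Some genes passed the filter on level through 1 of the stages compared. They were RAB15 and RAB27B in period I, RAB15, RAB19 and RAB27B in period II, RAB8A in period III, and RAB8A and RAB19 over the whole span. The filter favours a difference in such a gene without forcing a call, as RAB15 in period II and RAB19 over the whole span were not called. RAB26 and RAB3A were too dim to be tested in any comparison, RAB19 in period I, and RAB27B in period III and over the whole span. The stage with the highest mean was 94 dpc for 10 of the 36 genes, 1 dpn for 14, 28 dpn for 5 and 188 dpn for 7, and 17 genes were lowest at 188 dpn. Among all 6765 genes 24.7% were highest at 1 dpn and 37.5% lowest at 188 dpn. The 4 comparisons share arrays, so a change in 1 of them is not independent of the next. The members were listed with earlier results of these data known, and no test was made of the list as a whole.

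**Figure D1:**
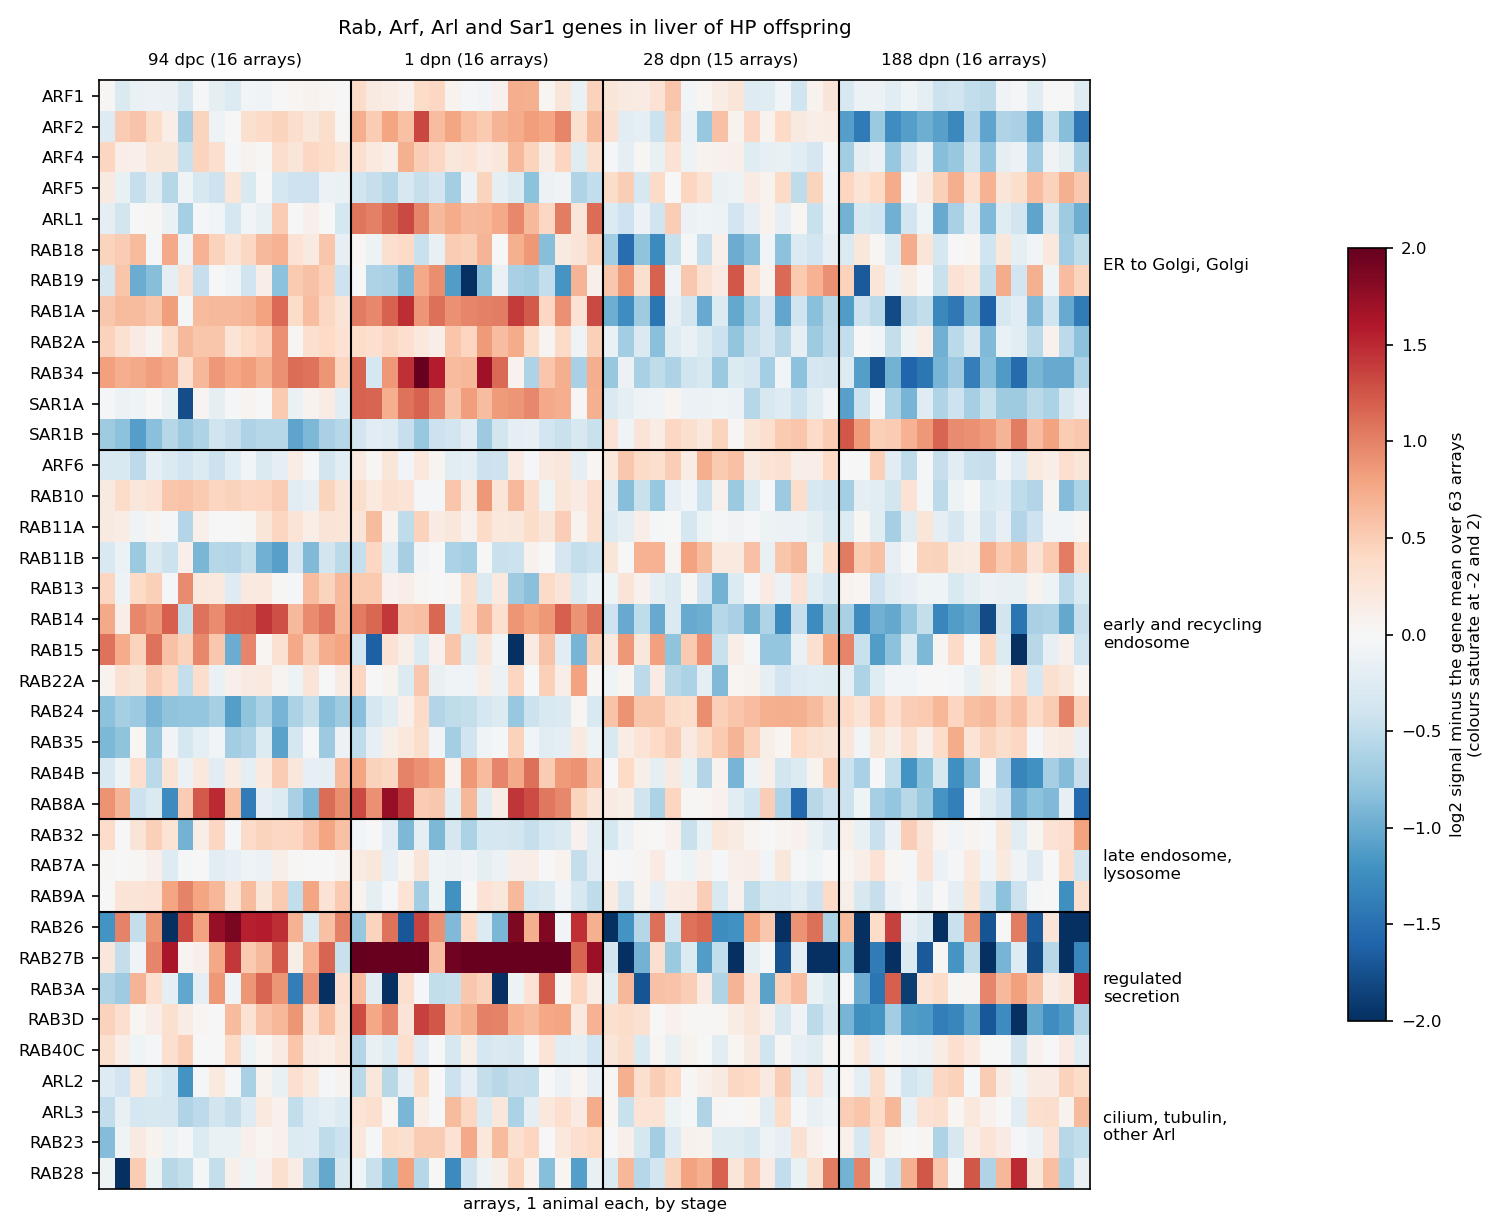
Log2 signal of the 36 genes (rows, by the membrane step they serve) on 63 arrays (columns, by stage), as the difference from the mean of each gene over all arrays. Many Golgi and recycling genes, such as RAB1A, ARL1 and SAR1A, are red at 1 dpn and pale or blue later, while SAR1B, RAB24 and RAB11B run from blue to red with age.

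The first step out of the ER is run by SAR1A and SAR1B, which open the assembly of the COPII coat on the ER membrane. In humans SAR1B is known for its need in the export of chylomicrons from the gut. The lowest, median and highest signals of SAR1B were 11.78, 12.25 and 12.49 at 94 dpc, 12.13, 12.52 and 12.72 at 1 dpn, 12.81, 13.21 and 13.44 at 28 dpn, and 13.36, 13.72 and 14.13 at 188 dpn. The values climbed at each stage, and no array of 28 dpn overlapped with 1 dpn, and none of 188 dpn with 94 dpc. SAR1B rose by 0.32 (SE 0.075, adjusted p = 0.000578) in period I, by 0.69 (SE 0.073, adjusted p = 8.44e-10) in period II and by 0.49 (SE 0.081, adjusted p = 1.41e-05) in period III. Over the whole span the gain was 1.49 (SE 0.083, adjusted p = 2.91e-17), which is 2.82-fold. It was 1 of 2 members that rose without overlap over the whole span, where 27% of all genes were called without overlap in either direction, and the only member to do so in period II, where that share was 12.4%. SAR1A ran another course, with 8.89, 10.64 and 11.19 at 94 dpc, 10.69, 11.51 and 11.85 at 1 dpn, 10.10, 10.54 and 10.72 at 28 dpn, and 9.58, 10.10 and 10.64 at 188 dpn. It was high at 1 dpn, where the range overlapped with that of 94 dpc and at its edge with that of 28 dpn. SAR1A rose by 0.94 (SE 0.14, adjusted p = 6.21e-07) in period I, and changed by -1.02 (SE 0.091, adjusted p = 1.91e-11) in period II, -0.34 (SE 0.086, adjusted p = 0.00196) in period III and -0.42 (SE 0.14, adjusted p = 0.00538) over the whole span. When arrays were centred on their median, the fall of period III was not called (-0.23) and that over the whole span changed sign (0.25, not called). Centring does not move the difference of the paralogs within an array. SAR1B minus SAR1A had medians of 1.54, 1.05, 2.76 and 3.56 from 94 dpc to 188 dpn, and its values did not overlap between 28 dpn (2.34 to 3.20) and 1 dpn (0.29 to 1.87). The peak of SAR1A at 1 dpn, and with it the dip of this difference, rest on 1 of 3 SAR1A probe-sets. The other 2 changed by -0.38 and -0.25 in period I.

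Transport from the ER to the Golgi needs RAB1A, and RAB2A acts between both organelles and on the Golgi. RAB1A had lowest, median and highest signals of 11.20, 11.85 and 12.36 at 94 dpc, 11.51, 12.23 and 12.69 at 1 dpn, 9.75, 10.50 and 11.06 at 28 dpn, and 9.42, 10.32 and 11.01 at 188 dpn. All arrays of 28 dpn were below all of 1 dpn, and all of 188 dpn below all of 94 dpc. It rose by 0.42 (SE 0.10, adjusted p = 0.000972) in period I, fell by 1.74 (SE 0.13, adjusted p = 1.65e-13) in period II, which is 3.35-fold lower at 28 dpn, and in period III the change of -0.17 (SE 0.16, adjusted p = 0.444) was not called. The net change over the whole span was -1.49 (SE 0.14, adjusted p = 1.48e-11). RAB2A had 11.50, 11.85 and 12.39 at 94 dpc, 11.41, 11.85 and 12.33 at 1 dpn, 10.64, 11.05 and 11.35 at 28 dpn, and 10.52, 11.09 and 11.62 at 188 dpn. The fetal and newborn arrays covered the same range, the later stages a lower one, and no array of 28 dpn overlapped with 1 dpn or 94 dpc. Its change was 0.00032 (SE 0.088, adjusted p = 0.998) in period I, -0.83 (SE 0.092, adjusted p = 1.84e-09) in period II and 0.076 (SE 0.11, adjusted p = 0.624) in period III, so that only period II was called. Over the whole span RAB2A changed by -0.75 (SE 0.10, adjusted p = 8.11e-08), and after median centring by -0.084, which was not called.

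At the Golgi itself, ARL1 brings golgin tethers to the trans-Golgi network, and the Arf proteins recruit the COPI coat and clathrin adaptors. ARL1 had 10.34, 10.95 and 11.52 at 94 dpc, 11.25, 11.87 and 12.33 at 1 dpn, 10.55, 10.88 and 11.50 at 28 dpn, and 9.95, 10.49 and 10.91 at 188 dpn as lowest, median and highest signal. It was high at 1 dpn, with a narrow overlap with the stages on either side. It rose by 0.95 (SE 0.10, adjusted p = 1.24e-09) in period I, and its changes of -0.98 (SE 0.10, adjusted p = 2.85e-10) in period II and -0.45 (SE 0.11, adjusted p = 0.00129) in period III came to a net change of -0.49 (SE 0.11, adjusted p = 0.000131) that had the other sign after median centring (0.18, not called). ARF2, a class I Arf that humans lack in functional form, had 8.17, 9.17 and 9.40 at 94 dpc, 9.16, 9.54 and 10.17 at 1 dpn, 8.08, 8.97 and 9.43 at 28 dpn, and 7.40, 7.78 and 8.39 at 188 dpn. It peaked at 1 dpn and was lowest at 188 dpn, with some overlap at every step. ARF2 changed by 0.52 (SE 0.10, adjusted p = 5.91e-05), -0.64 (SE 0.11, adjusted p = 5.49e-06) and -1.05 (SE 0.12, adjusted p = 2.71e-08) in periods I, II and III, and by -1.17 (SE 0.11, adjusted p = 3.04e-11) over the whole span, and that of period II was not called after median centring (-0.24). The changes of the other Arf genes of the Golgi were smaller. ARF1, the major Arf of the Golgi, had stage means of 12.91, 13.23, 13.08 and 12.78, rose by 0.32 (SE 0.080, adjusted p = 0.000854) in period I and changed by -0.30 (SE 0.082, adjusted p = 0.00491) in period III. The class II Arf genes parted, ARF4 with stage means of 13.33, 13.43, 13.06 and 12.69 and ARF5 with 9.44, 9.31, 9.78 and 10.10. ARF4 changed by -0.37 (SE 0.080, adjusted p = 0.000116) in period II and -0.37 (SE 0.091, adjusted p = 0.00177) in period III, and ARF5 rose by 0.47 (SE 0.11, adjusted p = 0.000335) and 0.32 (SE 0.097, adjusted p = 0.0101). After median centring none of the falls of ARF4 was called (0.026 in period II, -0.26 in period III and 0.032 over the whole span), nor was that of ARF1 in period III (-0.18). ARF5 minus ARF4 within an array had medians of -3.94, -4.19, -3.24 and -2.65 from 94 dpc to 188 dpn, a difference that centring leaves as it is, though quantile normalization need not.

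The other Golgi and ER genes went in both directions. RAB34, which acts on the Golgi and in the making of cilia, had 9.30, 9.76 and 10.08 at 94 dpc, 8.31, 9.69 and 10.96 at 1 dpn, 8.15, 8.57 and 8.91 at 28 dpn, and 7.21, 7.95 and 8.68 at 188 dpn as lowest, median and highest signal. The 1 dpn arrays were spread over the widest range (SD 0.80, against 0.20 to 0.39 at the other stages), and all of 188 dpn lay below all of 94 dpc. RAB34 changed by -1.19 (SE 0.21, adjusted p = 6.03e-06) in period II, -0.61 (SE 0.12, adjusted p = 9.56e-05) in period III and -1.86 (SE 0.11, adjusted p = 1.75e-16) over the whole span, a 3.62-fold lower signal at 188 dpn. RAB18, a Rab of the ER and of lipid droplets, had 10.38, 11.00 and 11.31 at 94 dpc, 9.71, 10.84 and 11.43 at 1 dpn, 9.03, 10.09 and 10.66 at 28 dpn, and 9.85, 10.53 and 11.30 at 188 dpn. It was lowest at 28 dpn, and the ranges of all stages overlapped. Its change was -0.79 (SE 0.16, adjusted p = 6.82e-05) in period II and 0.51 (SE 0.15, adjusted p = 0.00617) in period III, where it was the largest of the 4 called rises. Over the whole span RAB18 changed by -0.46 (SE 0.12, adjusted p = 0.000629), with the other sign after median centring (0.21, not called). RAB19, another Golgi Rab, was dim, with stage means of 6.93, 6.59, 7.64 and 7.10. It passed the filter in period II through 28 dpn alone, where it was high. RAB19 rose in period II by 1.05 (SE 0.24, adjusted p = 0.000259) and changed by -0.54 (SE 0.18, adjusted p = 0.0188) in period III, a fall that did not pass after quantile normalization, median centring or with all arrays in 1 fit (adjusted p 0.0570 to 0.0831). Counted together, the 12 genes of the ER and Golgi gave 6 that rose and none that fell of 11 tested in period I, then 3 and 8 of 12 in period II, 3 and 7 in period III, and 2 and 8 over the whole span. The shares of all genes that rose and fell in these comparisons were 28% and 30.9%, 34.1% and 36.8%, 13.6% and 26.6%, and 33.7% and 46.7%. After median centring the counts were 7 and 0, 4 and 6, 3 and 3, and 4 and 3 (all genes 36.9% and 21.5%, 55.1% and 19.4%, 20.4% and 16.4%, and 58.8% and 22.8%), so their fall over the whole span depended on the scale.

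**Figure D2:**
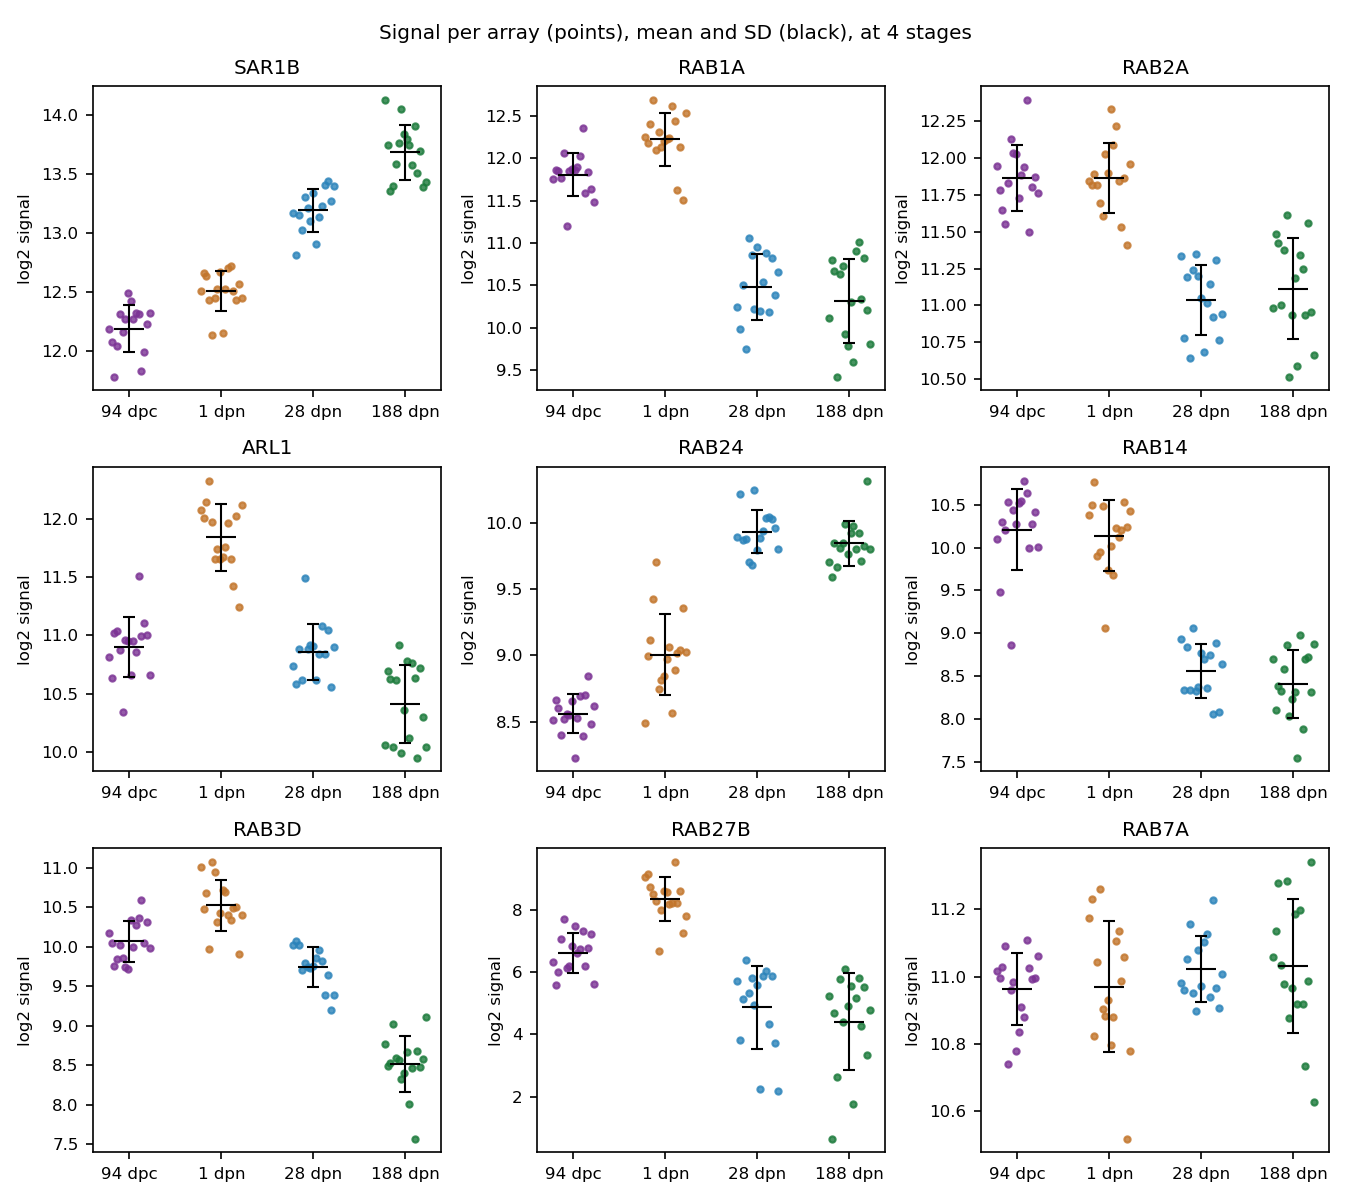
Log2 signal of 9 genes on each array (points) with the mean and SD (black) at 94 dpc, 1 dpn, 28 dpn and 188 dpn, each gene on its own axis. SAR1B climbs at each stage, RAB1A, RAB2A and RAB14 step down between 1 dpn and 28 dpn, RAB3D steps down again at 188 dpn, and the stage means of RAB7A lie within 0.0695 of each other on the deposited scale.

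Among the genes of early and recycling endosomes, RAB24 was the only one to rise without overlap over the whole span. RAB24 is an atypical Rab with a part in autophagy, and its lowest, median and highest signals were 8.23, 8.56 and 8.85 at 94 dpc, 8.49, 9.01 and 9.70 at 1 dpn, 9.68, 9.90 and 10.25 at 28 dpn, and 9.60, 9.82 and 10.32 at 188 dpn. The 28 dpn and 188 dpn arrays shared a range above all of 94 dpc. RAB24 rose by 0.45 (SE 0.091, adjusted p = 9.61e-05) in period I and 0.93 (SE 0.095, adjusted p = 3.17e-10) in period II, changed by -0.089 (SE 0.068, adjusted p = 0.33) in period III, which was not called, and gained 1.29 (SE 0.065, adjusted p = 3.36e-18) over the whole span, or 2.44-fold. RAB14, which moves cargo between the Golgi and endosomes, went the other way, with 8.87, 10.29 and 10.78 at 94 dpc, 9.06, 10.22 and 10.76 at 1 dpn, 8.06, 8.64 and 9.06 at 28 dpn, and 7.55, 8.36 and 8.98 at 188 dpn. The arrays of 94 dpc and 1 dpn covered a similar range, and those of 28 dpn and 188 dpn a lower one that met it only at the edge. The drop fell in period II, at -1.58 (SE 0.13, adjusted p = 5.22e-12), whereas periods I and III gave -0.071 (SE 0.15, adjusted p = 0.712) and -0.15 (SE 0.13, adjusted p = 0.373). Over the whole span RAB14 changed by -1.80 (SE 0.15, adjusted p = 1.26e-12), a 3.49-fold lower signal at 188 dpn.

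RAB4B, RAB8A and RAB35 serve the return of cargo to the cell surface, RAB8A also towards the apical membrane and the cilium. RAB4B had 7.09, 7.66 and 8.25 at 94 dpc, 7.69, 8.42 and 8.72 at 1 dpn, 6.69, 7.62 and 8.10 at 28 dpn, and 6.31, 6.97 and 7.63 at 188 dpn as lowest, median and highest signal. It was high at 1 dpn and low at 188 dpn. Its changes were 0.68 (SE 0.11, adjusted p = 1.83e-06), -0.80 (SE 0.12, adjusted p = 2.65e-07) and -0.62 (SE 0.14, adjusted p = 0.000544) in periods I, II and III. RAB8A was dim, not above background on 2 arrays each of 94 dpc and 188 dpn, and had stage means of 7.25, 7.89, 6.89 and 6.44. It rose by 0.64 (SE 0.26, adjusted p = 0.0377) in period I and changed by -0.99 (SE 0.20, adjusted p = 3.69e-05) in period II and -0.45 (SE 0.17, adjusted p = 0.0344) in period III. The calls of periods I and III were close to the threshold, and that of period I was lost without the filter on level, without 94 dpc arrays 6 and 13, or without 1 dpn arrays 9, 11 and 12 (adjusted p 0.0544 to 0.0661). That of period III was lost after quantile normalization (-0.36) and median centring (-0.34). The second RAB8A probe-set gave 0.042 (SE 0.18, adjusted p = 0.848) in period II. RAB35 rose by 0.36 (SE 0.12, adjusted p = 0.00944) in period I and 0.36 (SE 0.10, adjusted p = 0.00209) in period II, with stage means of 8.34, 8.70, 9.06 and 9.01. The second RAB35 probe-set rose in period I (0.71) and gave 0.047 (SE 0.22, adjusted p = 0.859) in period II. Over the whole span it gave 0.44 (SE 0.27, adjusted p = 0.133), where the one used rose by 0.67. Over the whole span RAB4B and RAB8A changed by -0.75 and -0.81, calls that neither kept after quantile normalization or median centring.

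RAB11A and RAB11B mark the recycling endosome, and the probe-sets used for them moved apart. RAB11B had 9.28, 9.86 and 10.45 at 94 dpc, 9.68, 9.97 and 10.77 at 1 dpn, 10.20, 10.72 and 11.16 at 28 dpn, and 10.20, 10.85 and 11.40 at 188 dpn as lowest, median and highest signal. The later stages were higher, with overlap at each step. It rose in period II by 0.63 (SE 0.12, adjusted p = 1.40e-05) and by 0.99 (SE 0.12, adjusted p = 2.13e-09) over the whole span. RAB11A changed by -0.35 (SE 0.081, adjusted p = 0.000276) in period II and -0.30 (SE 0.086, adjusted p = 0.00198) over the whole span, with stage means of 11.62, 11.77, 11.42 and 11.32, but after median centring these were 0.050 (not called) and 0.37 (called as a rise). The second RAB11A probe-set changed by -0.71 (SE 0.12, adjusted p = 4.63e-06) in period II and -0.75 (SE 0.13, adjusted p = 1.91e-06) over the whole span. Its changes after median centring were not listed. RAB11B minus RAB11A within an array had medians of -1.78, -1.70, -0.60 and -0.55 over the 4 stages. RAB10, which sends cargo to the basolateral membrane, changed by -0.62 (SE 0.11, adjusted p = 9.10e-06) in period II and -0.64 (SE 0.10, adjusted p = 7.46e-07) over the whole span, and neither was called after median centring (-0.22 and 0.030). RAB13, a Rab of tight junctions, passed only over the whole span, at -0.44 (SE 0.094, adjusted p = 9.00e-05), and was called as a rise after median centring (0.23). RAB22A, a Rab of early endosomes, changed by -0.40 (SE 0.11, adjusted p = 0.00155) in period II. That call was lost after quantile normalization (-0.20) and median centring (-0.0021), and on both of these scales RAB22A was called as a rise over the whole span (0.20 and 0.50).

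RAB15, an endosomal Rab best known from neurons, was dim and variable, with SDs of 0.51 to 0.95 within a stage and 3 arrays of 1 dpn and 1 of 188 dpn not above background. Its lowest, median and highest signals were 6.10, 7.75 and 8.19 at 94 dpc, 3.94, 7.12 and 7.68 at 1 dpn, 6.30, 7.28 and 8.01 at 28 dpn, and 3.74, 6.82 and 8.07 at 188 dpn. The ranges of all stages overlapped widely. It changed by -0.84 (SE 0.26, adjusted p = 0.00624) in period I and -0.96 (SE 0.26, adjusted p = 0.00111) over the whole span, and the second did not pass after quantile normalization (-0.31) or median centring (-0.30). ARF6, which works at the plasma membrane and on endosomes, had stage means of 11.07, 11.31, 11.67 and 11.24, rose by 0.23 (SE 0.078, adjusted p = 0.0112) and 0.37 (SE 0.081, adjusted p = 0.000177) in periods I and II, and changed by -0.43 (SE 0.095, adjusted p = 0.000485) in period III. The call of period I was lost after quantile normalization (0.16). Of the 12 endosomal genes 5 rose and 1 fell in period I, 4 and 6 in period II, 0 and 3 in period III, and 3 and 7 over the whole span. Among all genes 28% and 30.9% did so in period I, 34.1% and 36.8% in period II, 13.6% and 26.6% in period III, and 33.7% and 46.7% over the whole span. The last count was 4 and 4 after quantile normalization (all genes 42.8% and 37.1%) and 7 and 1 after median centring (58.8% and 22.8%).

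Of the 3 late endosomal genes, 2 fell in period I, when 30.9% of all genes fell, and RAB7A had no called change on the deposited scale. RAB7A, which governs fusion with lysosomes, had 10.74, 10.99 and 11.11 at 94 dpc, 10.52, 10.96 and 11.26 at 1 dpn, 10.90, 10.98 and 11.23 at 28 dpn, and 10.63, 11.01 and 11.34 at 188 dpn as lowest, median and highest signal. The stages covered a similar range on this scale, and 3.92% of the sum of squares of RAB7A over the 63 arrays lay between stages, against 90.4% for SAR1B. Its changes were 0.0071 (SE 0.067, adjusted p = 0.937), 0.052 (SE 0.068, adjusted p = 0.501), 0.010 (SE 0.066, adjusted p = 0.919) and, over the whole span, 0.069 (SE 0.066, adjusted p = 0.333). After median centring RAB7A was called as a rise in period II (0.45, adjusted p = 3.51e-05) and over the whole span (0.74, adjusted p = 1.52e-10), and after quantile normalization it was not called. RAB9A, which returns receptors of lysosomal enzymes to the Golgi, changed by -0.57 (SE 0.14, adjusted p = 0.000911) in period I and -0.65 (SE 0.13, adjusted p = 4.59e-05) over the whole span, the second of which was 0.017 after median centring. RAB32, a Rab of lysosome-related organelles and mitochondria, had 9.56, 10.91 and 11.30 at 94 dpc, 9.62, 10.18 and 10.60 at 1 dpn, 10.07, 10.52 and 10.74 at 28 dpn, and 10.07, 10.57 and 11.32 at 188 dpn. On the probe-set used RAB32 was lowest at 1 dpn, with ranges that overlapped between stages. RAB32 changed by -0.63 (SE 0.12, adjusted p = 3.88e-05) in period I and rose in period II by 0.30 (SE 0.091, adjusted p = 0.00472). In period I the second probe-sets of both genes were not called, with -0.22 (SE 0.19, adjusted p = 0.315) for RAB9A and -0.25 (SE 0.14, adjusted p = 0.126) for RAB32. In period II that of RAB9A fell, by 0.70 (SE 0.15, adjusted p = 0.000115), whereas the probe-set used gave 0.065. The second RAB32 probe-set was lowest at 28 dpn (mean 9.37). It gave -0.28 (SE 0.13, adjusted p = 0.0502) in period II, where the one used rose. Over the whole span it changed by -0.44 (SE 0.15, adjusted p = 0.0105), where the one used was not called (-0.18).

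The largest changes of periods I and II were those of RAB27B, a Rab of secretory granules, exosomes and platelet granules. Its lowest, median and highest signals were 5.59, 6.66 and 7.70 at 94 dpc, 6.69, 8.40 and 9.53 at 1 dpn, 2.18, 5.34 and 6.40 at 28 dpn, and 0.66, 4.84 and 6.10 at 188 dpn. Its signal exceeded the background in 12 of 16 animals at 94 dpc, in all 16 at 1 dpn, in 6 of 15 at 28 dpn and in 2 of 16 at 188 dpn, and every array of 28 dpn was below every array of 1 dpn. It passed the filter on level through 1 dpn alone in both periods, the stage at which it was high, so its calls are no support beyond the levels themselves. RAB27B rose by 1.73 (SE 0.23, adjusted p = 9.33e-08) in period I, or 3.31-fold, and its change in period II was -3.47 (SE 0.36, adjusted p = 4.78e-10), or 11.1-fold lower at 28 dpn, a fold that rests in part on signals not above background. Megakaryocyte markers stand beside it because of its place in platelets. The 4 on the array (PPBP, ITGA2B, GP9 and VWF) all fell in period I, when 30.9% of all genes fell. Their summed levels were 8.95 to 9.89 at 1 dpn and 9.55 to 11.1 at 94 dpc. PPBP and VWF averaged 5.80 and 6.57 at 1 dpn, below the mean array median (7.23). Both thus likely passed the filter on level through 94 dpc alone, where they were high. Of 3 tested in period II 1 fell (36.8% of all genes), with summed levels of 8.84 to 9.42 at 28 dpn. None of the 4 was at 0 throughout a stage, and their part in the changes of RAB27B was not tested.

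RAB3D, which sits on secretory granules of exocrine cells, had 9.71, 10.03 and 10.60 at 94 dpc, 9.90, 10.48 and 11.08 at 1 dpn, 9.19, 9.75 and 10.07 at 28 dpn, and 7.57, 8.55 and 9.11 at 188 dpn as lowest, median and highest signal. All arrays of 188 dpn were below all of 28 dpn and all of 94 dpc. It rose by 0.46 (SE 0.11, adjusted p = 0.000537) in period I and changed by -0.78 (SE 0.11, adjusted p = 1.45e-07) in period II and -1.22 (SE 0.11, adjusted p = 4.96e-10) in period III, the only member without overlap in period III, where 1.85% of all genes were called without overlap. The whole span gave -1.55 (SE 0.11, adjusted p = 2.86e-14), a 2.93-fold lower signal at 188 dpn. The other RAB3D probe-sets were dim and not tested in any comparison. One averaged 7.35, 7.07, 5.94 and 6.19 from 94 dpc to 188 dpn, the other 6.05, 6.28, 5.89 and 5.46. The former was neither higher at 1 dpn than at 94 dpc nor lower at 188 dpn than at 28 dpn. The calls of RAB3D thus rest on 1 of 3 probe-sets. Macrophage markers moved in the direction of the RAB3D probe-set used in period III, when 8 of 8 fell. Their summed levels were 14.7 to 15.5 at 188 dpn and 15.4 to 16.0 at 28 dpn. However, 5 of these markers rose and none fell in period II (34.1% and 36.8% of all genes). Over the whole span 6 rose and 1 fell (33.7% and 46.7% of all genes). Markers of cholangiocytes (2 of 3 tested), neutrophils (2 of 3) and endothelium (3 of 5) also fell in period III, and none of these rose. Among all genes 26.6% fell in that period. MARCO, KRT19 and S100A8 averaged below the mean array median of 188 dpn (6.72), so the filter on level likely favoured their falls. The part of any of these cell types in the fall of RAB3D was not tested. RAB40C, whose protein carries a SOCS box, as adaptors of ubiquitin ligases do, changed by -0.33 (SE 0.086, adjusted p = 0.00128) in period I, a call that was lost after median centring (-0.18). RAB26, of secretory granules, was above background on 5, 5, 7 and 3 arrays from 94 dpc to 188 dpn, with medians of 5.88, 5.52, 4.60 and 4.72. RAB3A, of synaptic vesicles, was above it on 10, 14, 13 and 13 arrays, with medians of 6.46, 6.42, 6.62 and 6.59.

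Of the remaining genes, RAB23 restrains hedgehog signaling at the cilium, RAB28 and ARL3 serve ciliary traffic, and ARL2 acts in tubulin folding. RAB23 had stage means of 8.05, 8.56, 8.10 and 8.15, and rose by 0.51 (SE 0.091, adjusted p = 1.65e-05) in period I and changed by -0.46 (SE 0.088, adjusted p = 2.90e-05) in period II, a call lost after median centring (-0.055). ARL3 rose by 0.39 (SE 0.12, adjusted p = 0.00642), 0.30 (SE 0.096, adjusted p = 0.0149) and 0.55 (SE 0.090, adjusted p = 1.31e-06) in period I, in period III and over the whole span. ARL2 rose in period II by 0.46 (SE 0.10, adjusted p = 0.000166) and by 0.27 (SE 0.12, adjusted p = 0.0416) over the whole span, a call lost without array 6 of 94 dpc. RAB28 had 6.45, 8.56 and 9.18 at 94 dpc, 7.39, 8.55 and 9.49 at 1 dpn, 8.11, 8.97 and 9.85 at 28 dpn, and 7.72, 9.06 and 10.16 at 188 dpn as lowest, median and highest signal. Its arrays were widely spread at every stage and overlapped. It rose in period II by 0.55 (SE 0.19, adjusted p = 0.0124) and 0.60 (SE 0.24, adjusted p = 0.0208) over the whole span. On the probe-sets used, none of these 4 genes fell over the whole span under any of the 3 scalings. The second RAB28 probe-set changed by -0.44 over the whole span. Another RAB23 probe-set changed by -1.56 (SE 0.15, adjusted p = 9.81e-11) in period II. It averaged 7.23 at 94 dpc and 5.99 at 188 dpn, and the third RAB23 probe-set 6.69 and 4.50. Neither of these RAB23 probe-sets was tested over the whole span.

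**Figure D3:**
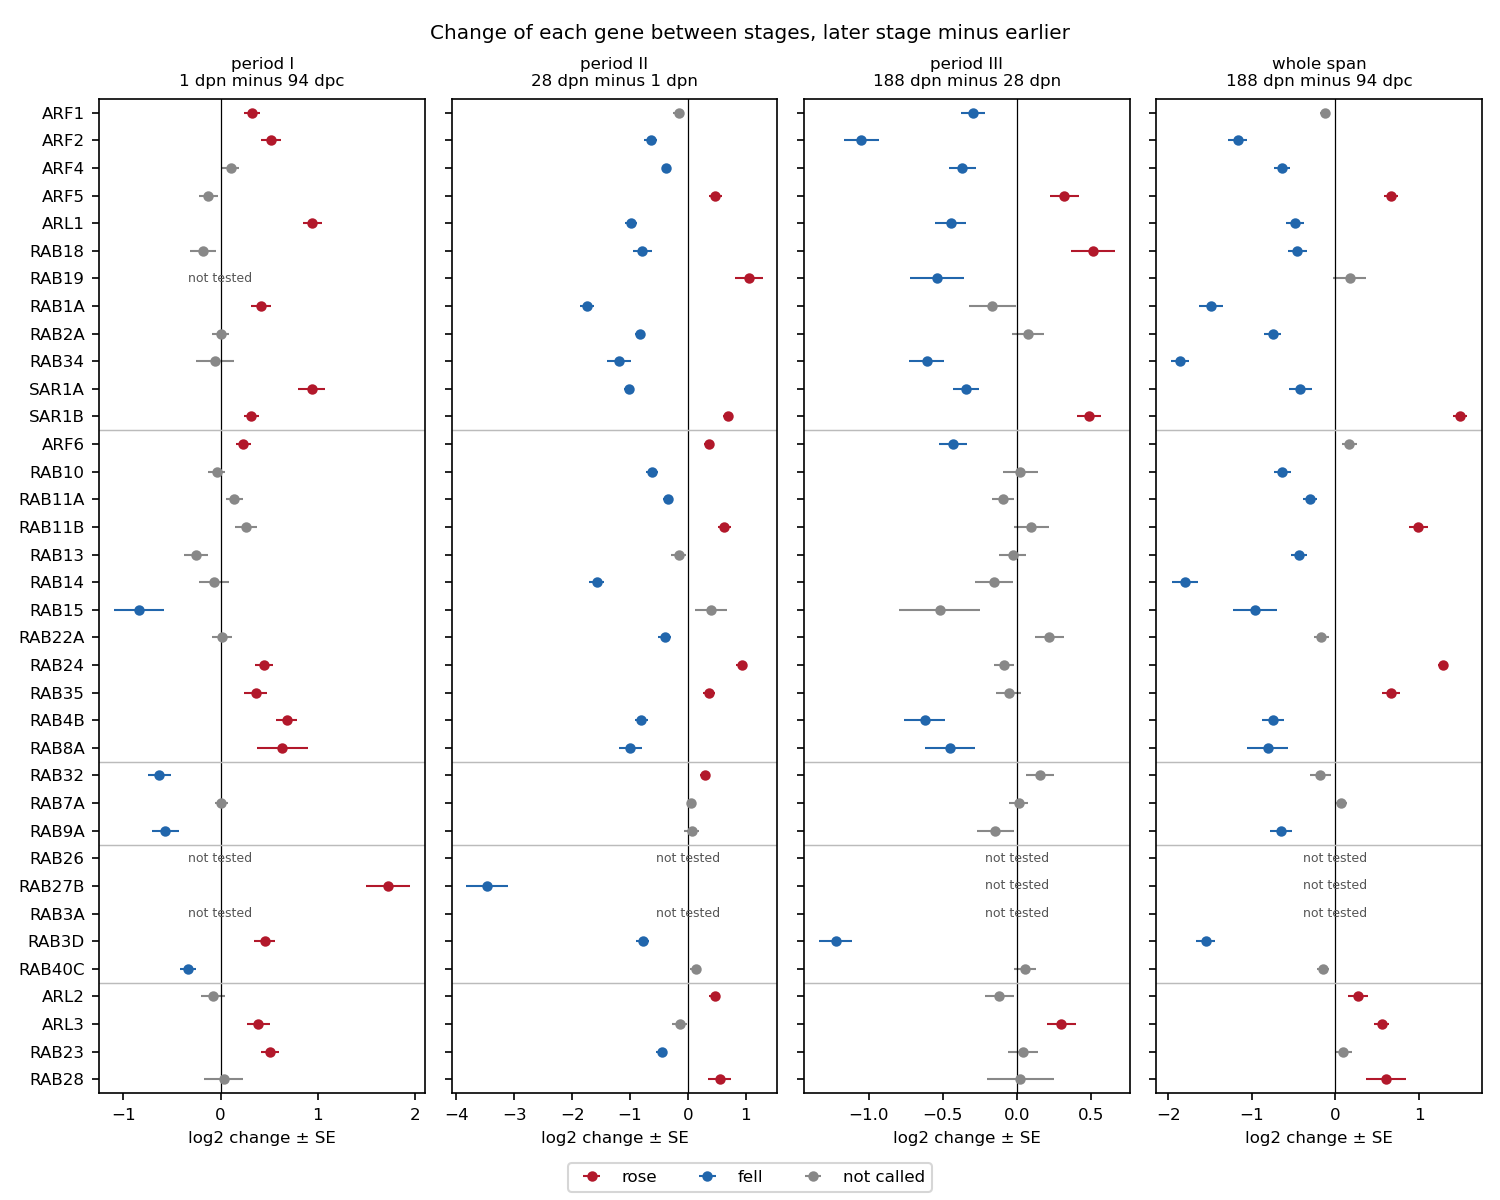
Log2 change ± SE of each gene in the 3 periods and over the whole span, later minus earlier stage, with red for genes that rose, blue for genes that fell and grey for changes not called. Each panel has its own axis. Period I has 15 red and 4 blue points and period II 10 red and 17 blue, with RAB27B farthest out in both.

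Without overlap between arrays, no GTPase gene was called in period I (6.76% of all genes), 4 of 34 in period II (SAR1B, RAB1A, RAB2A and RAB27B), 1 of 33 in period III (RAB3D) and 5 of 33 over the whole span (SAR1B, RAB24, RAB34, RAB3D and RAB1A). Among all genes these shares were 12.4%, 1.85% and 27%, so the GTPase genes were near them in period II and below over the whole span. Within a stage the median SD of the GTPase genes above the array median was 0.26, 0.30, 0.25 and 0.30 from 94 dpc to 188 dpn, against 0.29, 0.37, 0.28 and 0.32 for all such genes.

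Where 1 gene has several probe-sets they did not always run together. In period I the probe-set used for SAR1A rose by 0.94, whereas the other 2 changed by -0.38 (SE 0.12, adjusted p = 0.00529) and -0.25 (SE 0.10, adjusted p = 0.0375). All 3 fell in period II and over the whole span. Of the 3 other RAB10 probe-sets, 1 rose by 0.43 (SE 0.078, adjusted p = 2.03e-05) and another changed by -0.58 (SE 0.097, adjusted p = 6.15e-06) in period I, and all 4 of the gene fell in period II. The second RAB11B probe-set had 6.34, 7.53 and 8.41 at 94 dpc, 6.95, 8.56 and 9.02 at 1 dpn, 6.01, 6.86 and 7.88 at 28 dpn, and 3.65, 6.71 and 7.62 at 188 dpn as lowest, median and highest signal. It was highest at 1 dpn and low thereafter, unlike the brighter probe-set of the gene. It changed by -1.58 (SE 0.18, adjusted p = 3.51e-09) in period II and -0.95 (SE 0.28, adjusted p = 0.00269) over the whole span, against rises of 0.63 and 0.99, so the direction of RAB11B differs with the probe-set. RAB28 was split in the same comparisons, with -0.37 (SE 0.13, adjusted p = 0.014) in period II and -0.44 (SE 0.12, adjusted p = 0.00143) over the whole span for its second probe-set against 0.55 and 0.60. Opposite calls within a gene were found for 2 of 14 GTPase genes in period I, 2 of 15 in period II, 0 of 14 in period III and 2 of 14 over the whole span, and for 6.48%, 14.8%, 1.09% and 12.0% of all genes with several probe-sets tested. Counting every further probe-set of the GTPase genes, 8 of 18 tested gave the same result as the one used in period I, 12 of 18 in period II, 11 of 17 in period III and 12 of 18 over the whole span. The second RAB2A probe-set was higher at 1 dpn than at 94 dpc by 0.46 (SE 0.084, adjusted p = 2.18e-05), where the one used was not called, and that of RAB1A gave -0.033 (SE 0.15, adjusted p = 0.865), where the one used rose. Both SAR1B probe-sets that are bright rose in all 3 periods, with 1.35 (SE 0.088, adjusted p = 2.24e-15) over the whole span for the second, and the second probe-sets of RAB1A, RAB2A and ARF2 fell in period II as well (-1.44 (SE 0.17), -1.31 (SE 0.095) and -1.75 (SE 0.14)).

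**Figure D4:**
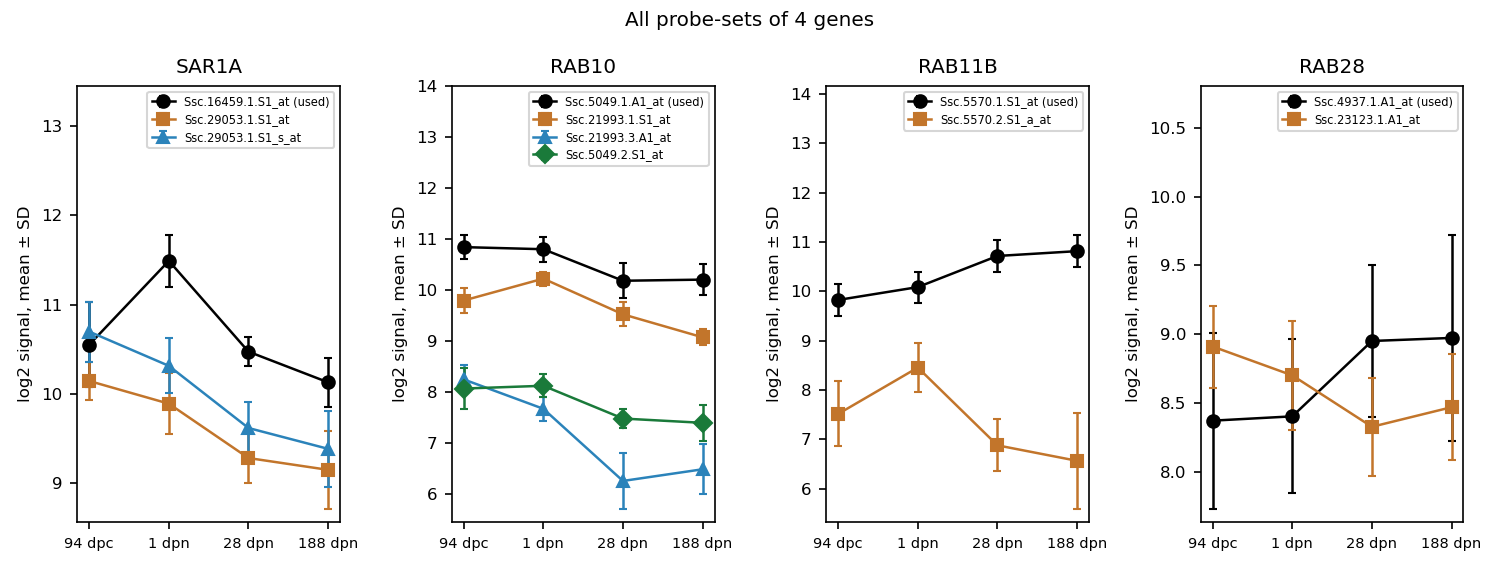
Mean log2 signal ± SD of every probe-set of SAR1A, RAB10, RAB11B and RAB28 at 94 dpc, 1 dpn, 28 dpn and 188 dpn, with the probe-set used for the gene in black. The RAB11B probe-sets part after 1 dpn (10.72 and 6.88 at 28 dpn, against 10.09 and 8.46 at 1 dpn), and only 1 of 3 SAR1A probe-sets peaks at 1 dpn.

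How the arrays are scaled decides part of the picture, and array medians differed between stages. On the deposited scale the median change over all genes was -0.027, -0.015, -0.083 and -0.17 in periods I, II, III and over the whole span, after quantile normalization 0.036, 0.082, -0.031 and 0.068, and after centring each array on its median 0.13, 0.38, 0.029 and 0.50. Relative to all genes, the median of the GTPase genes was 0.17, -0.24, -0.012 and -0.14 on the deposited and the centred scale, and 0.11, -0.27, -0.0098 and -0.26 after quantile normalization. In period I 14 genes rose and 3 fell under all 3 scalings, in period II 10 rose and 11 fell, in period III 4 rose and 6 fell, and over the whole span 8 rose and 5 fell (RAB1A, RAB34, RAB14, ARF2 and RAB3D). The share of all genes called under all 3 was not computed, so these counts have no background beside them. After median centring the counts of rises and falls were 18 and 3 of 33 in period I, against 36.9% and 21.5% of all genes, 15 and 11 of 34 in period II (55.1% and 19.4%), 5 and 6 of 33 in period III (20.4% and 16.4%), and 18 and 5 of 33 over the whole span (58.8% and 22.8%). The excess of rises over the background in period I and of falls in period II was thus present on all 3 scales, whereas over the whole span falls exceeded the background on the deposited and the quantile scale and not after median centring.

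**Figure D5:**
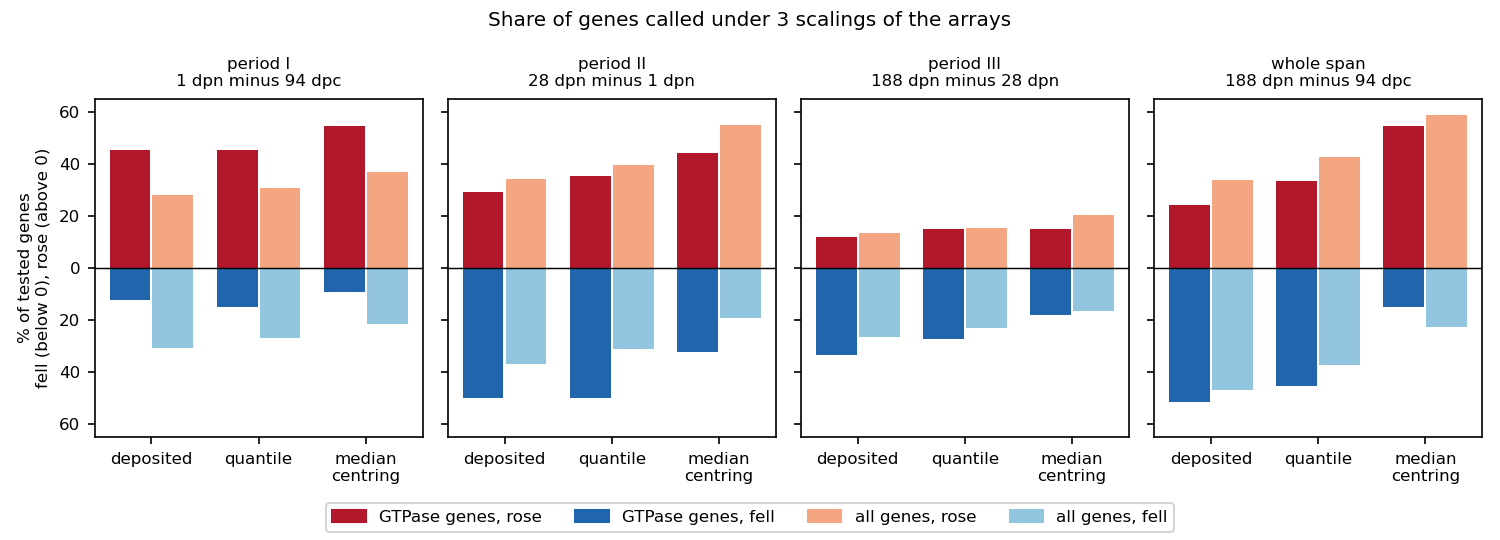
Percent of tested genes that rose (above 0) or fell (below 0), for the GTPase genes (dark bars) and all genes (light bars), under 3 scalings of the arrays. In period I, 45.5% of the GTPase genes rose on the deposited scale, against 28% of all genes, and in period II 50.0% fell, against 36.8%.

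The proteins that switch these GTPases, their effectors and the partners of Arf, Arl and Sar1 were followed as gene lists on the deposited scale. Counts under the other scalings were not computed. Of the Rab exchange factors, GTPase activating proteins, escort and prenylation factors, 9 of 32 tested rose and 9 fell in period I, 11 and 13 of 34 in period II, 3 and 2 of 34 in period III, and 12 and 16 of 34 over the whole span. In periods I and II and over the whole span these counts were near the shares of all genes that rose and fell (28% and 30.9%, 34.1% and 36.8%, and 33.7% and 46.7%), and in period III fewer fell than the 26.6% of all genes. RAB3IP, the exchange factor of RAB8, averaged 9.09 at 1 dpn and 7.97 at 94 dpc, a rise of 1.12 (SE 0.14, adjusted p = 2.91e-08), and changed by -1.30 (SE 0.17, adjusted p = 5.55e-08) in period II. GDI2, which extracts Rab proteins from membranes, averaged 12.56 at 1 dpn and 13.32 at 94 dpc, a change of -0.77 (SE 0.072, adjusted p = 9.01e-11) without overlap. The TRAPP complexes act as exchange factors of RAB1 and RAB11. Their subunits TRAPPC5 and TRAPPC3 rose over the whole span, by 1.53 (SE 0.085, adjusted p = 3.89e-17) and 1.49 (SE 0.072, adjusted p = 8.89e-19), both without overlap, and TRAPPC12, above background on 8 of 16 arrays at 94 dpc, rose by 1.76 (SE 0.31, adjusted p = 5.51e-06) with overlap. GAPVD1, an exchange factor of RAB5, and RABGGTB, a subunit of the enzyme that prenylates Rab proteins, changed by -1.79 (SE 0.15, adjusted p = 8.35e-13) and -1.16 (SE 0.086, adjusted p = 5.51e-14) over the whole span, both without overlap.

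Rab effectors gave 9 that rose and 8 that fell of 27 tested in period I, 10 and 9 of 28 in period II, 4 and 7 of 26 in period III, and 11 and 12 of 28 over the whole span, most of them near the shares of all genes (28% and 30.9% in period I, 34.1% and 36.8% in period II, 13.6% and 26.6% in period III, 33.7% and 46.7% for 188 dpn against 94 dpc). OPTN, an effector of RAB8 and autophagy receptor, averaged 12.02 at 1 dpn and 10.56 at 94 dpc, a rise of 1.46 (SE 0.15, adjusted p = 5.96e-10) without overlap, and changed by -1.23 (SE 0.14, adjusted p = 2.40e-09) in period II. RILP, which ties RAB7 to dynein, averaged 8.74 at 188 dpn and 6.23 at 94 dpc and rose by 2.51 (SE 0.23, adjusted p = 5.97e-12). MYO5B, the motor that carries RAB11 vesicles, averaged 10.63 and 8.70 at these stages and rose by 1.93 (SE 0.086, adjusted p = 8.99e-20). In both genes the arrays of the 2 stages did not overlap. Their GTPases RAB7A and RAB11A had changes of 0.069 and -0.30 on the deposited scale, and after median centring both were called as rises (0.74 and 0.37). The second RAB11A probe-set changed by -0.75 on the deposited scale, and its value after centring was not listed. RAB11B rose by 0.99 on the probe-set used and changed by -0.95 on the other. The Golgi tether GOLGA5 and RUFY3 changed by -2.02 (SE 0.13, adjusted p = 6.03e-16) and -2.18 (SE 0.22, adjusted p = 1.19e-10), both without overlap, with signals over the background in 13 and 9 of 16 animals at 188 dpn. RILP averaged below the mean array median of 94 dpc (7.38) and near the background (6.10), so it likely passed the filter on level through 188 dpn alone. Such a call is no support beyond the levels themselves. Which stage let the other partner genes through, RUFY3 and TRAPPC12 among them, was not listed.

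Partners of Arf, Arl and Sar1 rose in 9 cases and fell in 9 of 35 tested in period I, in 8 and 18 of 36 in period II, in 2 and 8 of 34 in period III, and in 3 and 17 of 35 over the whole span. Beside these stand 28% and 30.9%, 34.1% and 36.8%, 13.6% and 26.6%, and 33.7% and 46.7% of all genes. Their median change was -0.26 in period II and -0.27 over the whole span, against -0.015 and -0.17 over all genes. These values are on the deposited scale, and those after median centring were not computed. SEC23B, part of the inner COPII coat, averaged 11.29 at 1 dpn and 10.05 at 94 dpc, a rise of 1.24 (SE 0.12, adjusted p = 1.49e-10). PREB, the exchange factor that loads SAR1 with GTP, averaged 9.74 at 1 dpn and 8.60 at 94 dpc and rose by 1.13 (SE 0.13, adjusted p = 2.80e-09) without overlap. It averaged 8.80 at 28 dpn, a change of -0.94 (SE 0.12, adjusted p = 5.68e-08) from 1 dpn. ARFGEF2, an exchange factor of Arf proteins at the trans-Golgi network, changed by -0.94 (SE 0.12, adjusted p = 5.93e-08) in period II and -1.07 (SE 0.14, adjusted p = 3.50e-08) over the whole span.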

How the data were processed

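Liver RNA of 63 HP animals was measured on Affymetrix porcine arrays. The table deposited by the authors holds log2 signals in the manner of the MAS5 algorithm, scaled to a trimmed mean of 500 (2% trimmed at each end). The submitters' processing notes name GCOS 1.1.1. The study's methods describe GCRMA values, a filter on detection and spread and a mixed model, none of which is in these values. No column was unmatched.

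Control probe-sets (188) were left out. Of the others 10069 had 1 symbol, 198 several and 13668 none. limma 3.58.1 in R 4.3.3 compared the arrays of 2 stages, without covariates, for probe-sets over the array median (50th percentile) in 50% or more of the animals of a stage. P-values were two-sided and adjusted over all probe-sets tested (12839, 13078, 12418 and 13377 in periods I, II, III and over the whole span), and the fit was tested on simulated data. Named genes were the 6 largest rises and falls per comparison, genes without overlap, the highest and lowest, and paralogs, and further genes were named as examples after their values were seen. Members and lists were chosen with earlier results of these data known. Alternatives concerned scaling, level filter, probe-set choice, variance model, threshold, arrays in the fit and arrays left out.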

Additional observations from a re-analysis of the deposited data

How the results depend on the processing

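With a change of at least 1 on the log2 scale required, 1, 1, 0 and 2 genes rose and 0, 5, 2 and 5 fell in periods I, II, III and over the whole span. The rises of periods I and II were RAB27B and RAB19, and RAB27B was also among the falls of period II. Both passed the filter on level only through the stage at which they were high. Shares of all genes at this threshold were not computed. Centring arrays on their median left 11 falls in period II, 6 in period III, and 18 rises and 5 falls over the whole span. With the 75th percentile filter, 7 of 26 genes tested fell in period III, since fewer were tested. With the mean of all probe-sets of a gene, 5 rose in period II, and RAB11B reversed (-0.47, adjusted p = 0.00064). That mean also cost the calls of SAR1A in period I (0.10, adjusted p = 0.425), RAB28 in period II and over the whole span, and RAB11B over the whole span. RAB8A lost its call in period III under 5 alternatives (adjusted p 0.0524 to 0.129) and in period I under 3. RAB15 over the whole span, RAB19 in period III and RAB40C in period I lost theirs under the scalings given above, the cause of which was not tested. Of the calls of all GTPase genes, leaving out 94 dpc array 6 kept 19 of 19 in period I and 23 of 25 over the whole span (RAB8A and ARL2 lost). Without 94 dpc arrays 6 and 13 these were 18 of 19 and 25 of 25, and without 1 dpn arrays 9, 11 and 12 they were 18 of 19 in period I and 27 of 27 in period II, RAB8A being lost in period I both times. Animals were not paired by the labels, and dim genes (RAB26, RAB3A, and RAB27B after 1 dpn) are limited by signal over background.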
